A study of Mus musculus with 172 samples.

Results

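The transcripts described here come from 10 genes that make, lengthen and desaturate fatty acids, chosen by name: Srebf1, Acly, Acaca, Fasn, Elovl6, Elovl5, Scd1, Scd2, Fads1 and Fads2. All 10 were listed in the tables of both tissues, among 14896 genes in cerebral cortex and 14107 in liver. Mice of the BXD panel, inbred lines that carry different mosaics of the C57BL/6J (B6) and DBA/2J (D2) genomes, were kept awake by gentle handling for 6 h from light onset (sleep deprivation, SD) or left undisturbed (Ctr), and cortex and liver of both groups were taken at zeitgeber time 6. Per the study's methods, the animals were young adult males with food at all times, SD and Ctr mice were paired within cohorts, and all were under isoflurane when killed. Equal amounts of RNA from the mice of one line and condition were pooled, so that each library is 1 pool and no line has a replicate of its own. The methods give 3 mice per pool, with BXD79, BXD85 and BXD101 as exceptions. These lines bred poorly and had fewer mice, and the number in each of their pools is not given. The comparisons below used 39 pools per tissue and condition, namely 33 BXD/RwwJ lines, the parental strains sampled at the start (B6-1, D2-1) and at the end (B6-2, D2-2) of the breeding period, and both reciprocal F1 crosses (BD-F1, DB-F1), out of 43 pools and 172 libraries in all. The labels name BXD96, BXD97 and BXD103 as 48a, 65a and 73b, that is as sublines of BXD48, BXD65 and BXD73, which are also in the set. Tests treated them as separate lines, and the text says where a call was lost without them. The other libraries come from 4 BXD/TyJ lines, which entered only an alternative with all 43 pools and are otherwise given as values.

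Fatty acids are built in the cytosol from acetyl-CoA. ATP citrate lyase (Acly) releases acetyl-CoA from citrate, acetyl-CoA carboxylase (Acaca) turns it into malonyl-CoA, and fatty acid synthase (Fasn) assembles palmitate, which elongases (Elovl6 for saturated chains, Elovl5 for polyunsaturated ones) lengthen and desaturases (Scd1 and Scd2 for monounsaturated products, Fads1 and Fads2 for long polyunsaturated ones) modify. Srebf1 encodes SREBP-1, the transcription factor that insulin and feeding raise in liver and that drives most of these enzymes, while in brain the same enzymes supply membrane and myelin lipids and Scd2 is the main stearoyl-CoA desaturase.

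The promoters of 4 members are shown because their genes gave the clearest changes below: Srebf1, Fasn and Acly fell together in liver, and Elovl6 rose in cortex. The 250 bases before a start site were read from RefSeq's promoter table (GRCm38.p6), which held 7 of the 10 members (not Scd1, Scd2 and Fads1). They run 5′ to 3′ on the gene's strand, and capitals mark matches, on either strand, to CCAAT (the NF-Y box) or GGGCGG (the Sp1 box), both known neighbours of SREBP sites. For Srebf1 the last of 3 annotated start sites is shown (chr11:60210472-60210721, minus strand), with Acly at chr11:100528001-100528250 (minus), Fasn at chr11:120824548-120824797 (minus) and Elovl6 at chr3:129532136-129532385 (plus).
Srebf1: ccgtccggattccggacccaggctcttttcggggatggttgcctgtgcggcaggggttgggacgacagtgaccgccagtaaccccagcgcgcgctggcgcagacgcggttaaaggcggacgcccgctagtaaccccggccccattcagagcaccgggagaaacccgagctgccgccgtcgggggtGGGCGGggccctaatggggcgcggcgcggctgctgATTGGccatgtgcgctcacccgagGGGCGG
Acly: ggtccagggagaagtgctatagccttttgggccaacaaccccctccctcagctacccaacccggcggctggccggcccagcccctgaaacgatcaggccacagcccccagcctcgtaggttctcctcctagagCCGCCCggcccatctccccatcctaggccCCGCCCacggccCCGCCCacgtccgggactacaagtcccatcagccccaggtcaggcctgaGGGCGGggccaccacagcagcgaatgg
Fasn: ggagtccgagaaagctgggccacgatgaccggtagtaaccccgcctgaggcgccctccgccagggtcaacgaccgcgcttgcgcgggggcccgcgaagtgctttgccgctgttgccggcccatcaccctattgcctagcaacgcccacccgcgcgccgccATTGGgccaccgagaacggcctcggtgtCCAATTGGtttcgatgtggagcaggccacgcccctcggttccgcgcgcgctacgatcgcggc
Elovl6: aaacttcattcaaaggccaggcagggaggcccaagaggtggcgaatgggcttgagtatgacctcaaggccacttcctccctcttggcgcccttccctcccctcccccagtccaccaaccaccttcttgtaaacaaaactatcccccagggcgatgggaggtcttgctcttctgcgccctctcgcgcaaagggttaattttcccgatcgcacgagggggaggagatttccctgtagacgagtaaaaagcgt
The Fasn window held 3 matches to CCAAT, at 90 to 86, 62 to 58 and 59 to 55 bases before the start, of which the last pair overlap. The Srebf1 window held 1 CCAAT and 2 GGGCGG matches, the Acly window 4 GGGCGG matches, and the Elovl6 window none of either. Of the Srebf1 start sites not shown, the first held 1 CCAAT match and no GGGCGG, and the second held 2 GGGCGG matches and no CCAAT. Among 32851 promoters of this length, 33.8% held CCAAT and 32.7% GGGCGG. The letters of an SREBP element, TCACNCCAC, were searched on both strands as well and occurred in 1.05% of all promoters and in none of the 7 members' windows, which says only that these letters are not in these windows. The E-box CACGTG (6.02% of promoters) occurred once among them, in Elovl5, and TATAAA (12.4%) in none.

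Each library of the 39 pools held 18995492 to 28998853 reads on listed genes in cortex and 4681101 to 8269401 in liver. Levels are given as CPM, the reads on a gene scaled to a common library size, or as its log2. The neuron markers summed to between 7670 and 8720 CPM in Ctr cortex, and the hepatocyte markers, all 5 of them listed, to between 1280 and 2200 CPM in Ctr liver, where none passed the test for SD. The lowest hepatocyte sum in Ctr was in BXD103, the deepest of these libraries (8269401 reads), and the highest in DB-F1, the shallowest (5034166). After SD the highest was in BXD70, again the shallowest (4681101). What part the library total had in these sums and in the lack of a call was not tested. A few libraries stood apart from their group. The SD liver of BXD70 correlated with the other SD livers at a median r of 0.9435 (0.9679 for the median library), and the Ctr cortex libraries of BXD56 and BXD90 did so at 0.9772 and 0.9791 (0.9866 for the median library). Counts of members called are therefore also given without these lines and DB-F1, whose Ctr liver was extreme for several members.

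Liver reads had a limit of their own that touches this gene set. Over the 78 liver libraries, the log2 reads on Scd1 rose by only 0.19 ± 0.05 (standard error) per unit of log2 library total, from 3864 to 4966 reads, where proportional sampling gives 1. The slope was 0.44 for Fads2, 0.48 for Elovl5, 0.56 for Fads1 and 0.65 for Srebf1, but 0.94 for Acly, 1.20 for Fasn, 1.68 for Elovl6 and 1.85 for Acaca. Over all genes the slope went down as the number of reads per exonic base went up: the median slope was 1.89 for the 2632 liver genes under 0.01 reads per base and 0.19 for the 107 genes with at least 1. In cortex the same medians ran from 0.94 to 1.00. The members kept to this order only in part, since Acly (0.70 reads per base) and Fasn (0.64) had steeper slopes than the less dense Srebf1 (0.51) and than Elovl5 (0.66). Scd1 (0.96 reads per base), Fads2 (1.28) and Fads1 (0.81) were thus among the densest liver genes, and for them a liver library's total moved with the measured level: over strains the Ctr level correlated with the log2 total at r = -0.91 for Scd1 (rho = -0.87) and r = -0.87 for both Fads1 (rho = -0.85) and Fads2 (rho = -0.82), each with a permutation p of 1e-05, the smallest that 100000 resamples can give, and r = -0.86, -0.81 and -0.80 without the 2 strains farthest from the median total. Srebf1 (r = -0.67, rho = -0.48, permutation p = 2e-05, r = -0.47 without the 2 farthest) and Elovl5 (r = -0.67, rho = -0.60, permutation p = 1e-05, r = -0.56) passed in Ctr as well. After SD, Elovl6 passed in the opposite direction (r = 0.63, rho = 0.55, permutation p = 3e-05, r = 0.47). After adjustment over all liver genes, 34.4% of them passed this test in Ctr and 48.7% after SD.

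**Figure D1:**
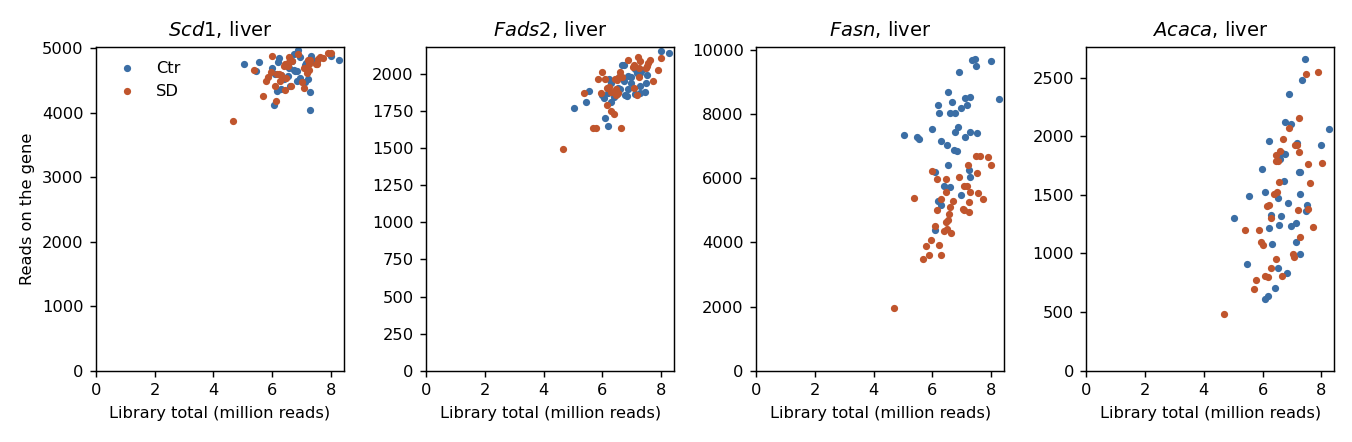
Reads on 4 members against the total reads of each of the 78 liver libraries (x axis, total reads on listed genes; y axis, reads on the gene; points in 2 colours for Ctr and SD). Reads on Scd1 stay between 3864 and 4966 over the whole range of totals, whereas those on Fasn and Acaca spread widely and rise with the total.

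The order of the members within each tissue set Scd2 apart. Per kb of exon (GENCODE vM1 models on mm9) and on the log2 CPM scale, Scd2 was the highest member in Ctr cortex, at a mean of 8.11 (7.92 to 8.28 over 39 pools), above every value of Fads1 (mean 6.14), Fads2 (5.68), Scd1 (5.50), Fasn (5.30) and Acly (5.19). Neighbours from Fads1 down to Acly overlapped in their ranges. Elovl5 (mean 4.57) lay below all of them, Srebf1 and Elovl6 (3.37 and 3.34) below Elovl5 and overlapping each other, and Acaca, the enzyme that makes malonyl-CoA, lowest at 1.5 (0.53 to 2.28).

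In Ctr liver, Scd2 was the lowest member instead, with a mean of 2.54 per kb (1.91 to 4.76). Fads2 (7.56), Scd1 (7.16), Fads1 (6.92), Acly (6.84), Fasn (6.79), Elovl5 (6.62) and Srebf1 (6.52) overlapped from neighbour to neighbour. Elovl6 (5.49, 4.84 to 6.02) lay below Srebf1 in every pool, and Acaca (4.37, 3.30 to 5.10) overlapped with both Elovl6 and Scd2. The exon length of Fads2 in these models, 1508 bases, is the shortest of the 10, and its level per kb rests on it. Reads on the densest of these genes rose little with the library total, as given above, and how that bears on the order of the upper 7 was not tested. The tissues were normalised apart, so only the order within a tissue is compared. Scd1 and Scd2, which face each other on chromosome 19 (Scd2 at chr19:44368166-44381354, Scd1 at chr19:44468941-44482199, mm9, plus and minus strand), share 2.64% and 0.9% of their 100-base exonic windows with each other or with Scd3 and Scd4, so few reads could be split between them. No window of another member was shared with a different gene. The Scd2 model also overlaps AC123853.2, a gene on the same strand, and the effect of this on Scd2 reads was not tested.

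The first question was how sleep loss changed these transcripts in cortex. SD lowered Srebf1 and raised Elovl6 in every pool, raised Elovl5 in 38 of 39 pools and lowered Fasn in 38 of 39 pools, while the other 6 members did not pass the test. In total 4 of 10 members were called (limma, adjusted p under 0.05), 2 higher and 2 lower, in a tissue where 68.4% of all genes were called, 33.0% higher and 35.4% lower. The median change of the members was -0.02 on the log2 scale and that of all genes -0.01. Of 6 oligodendrocyte markers, whose cells make much of the lipid of brain, 1 rose (Mobp, 0.25 ± 0.05) and 3 fell (Mog, -0.27 ± 0.06, Mag, -0.18 ± 0.05, and Cnp), and of 5 neuron markers 3 fell (Syt1, -0.15 ± 0.02). Of 4 microglia markers 2 fell (P2ry12, -0.33 ± 0.04, and Cx3cr1, -0.14 ± 0.04), and of 5 astrocyte markers 2 rose (Aldh1l1, 0.12 ± 0.03, and Slc1a3, 0.05 ± 0.02; 4 were called when paired by line). Their part in the members' changes was not tested.

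Cortical Srebf1, the regulator, ranged from 5.53 to 6.07 log2 CPM in Ctr (median 5.87) and from 5.33 to 5.78 after SD (median 5.51), and 23 of the 39 SD pools lay below every Ctr pool. It fell by 0.33 ± 0.03 on the log2 scale (standard error, limma adjusted p = 2.81e-21), and CPM thus fell by 20.7%. The change varied between pools from -0.59 in BXD44 to -0.01 in BXD45. Fewer cells of a type and less RNA per cell cannot be told apart in such bulk libraries.

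Elovl6, which extends palmitate to stearate, ran from 5.65 to 6.23 in Ctr cortex (median 5.91) and from 6.01 to 6.45 after SD (median 6.24). Of the SD pools, 20 lay above every Ctr pool. Its log2 increase was 0.33 ± 0.02 (limma adjusted p = 6.56e-24), or 25.9%, the largest rise among the members. BXD101 was lowest at 0.07 and BXD85 and BXD90 were highest at 0.54, where BXD101 and BXD85 are lines with fewer mice. Regulator and elongase thus moved in opposite directions in 39 of 39 pools.

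Elovl5, an elongase of polyunsaturated chains, spanned 6.12 to 6.74 in Ctr (median 6.42) and 6.26 to 6.81 after SD (median 6.57). The groups overlapped widely, yet only BXD85, a line with fewer mice, was lower after SD. The log2 change was 0.14 ± 0.03 (limma adjusted p = 1.89e-04). Fasn spanned 8.29 to 8.76 in Ctr (median 8.6) and 8.39 to 8.64 after SD (median 8.50). It fell by 0.10 ± 0.02 (adjusted p = 6.74e-06), and BXD90, whose Ctr library had the lowest Fasn of all, was the single pool that rose.

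Among the remaining cortical members, Acaca changed by -0.12 ± 0.15 (33 of 39 pools lower), Fads2 by -0.06 ± 0.03 (29 lower), Scd2 by -0.03 ± 0.02 (25 lower), Fads1 by -0.01 ± 0.03 (19 lower), Acly by 0.00 ± 0.01 (18 lower) and Scd1 by 0.01 ± 0.04 (19 lower), none of them called. Pairing Ctr and SD of each line, which removes differences between lines, called 7 members, with Acaca (adjusted p = 4.93e-07), Fads2 (6.64e-04) and Scd2 (0.0228) as additional decreases, beside 76.3% of all genes in the same fit (36.6% higher and 39.6% lower). Leaving out the lines that stood apart gave 5 calls, Fads2 being the addition.

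**Figure D2:**
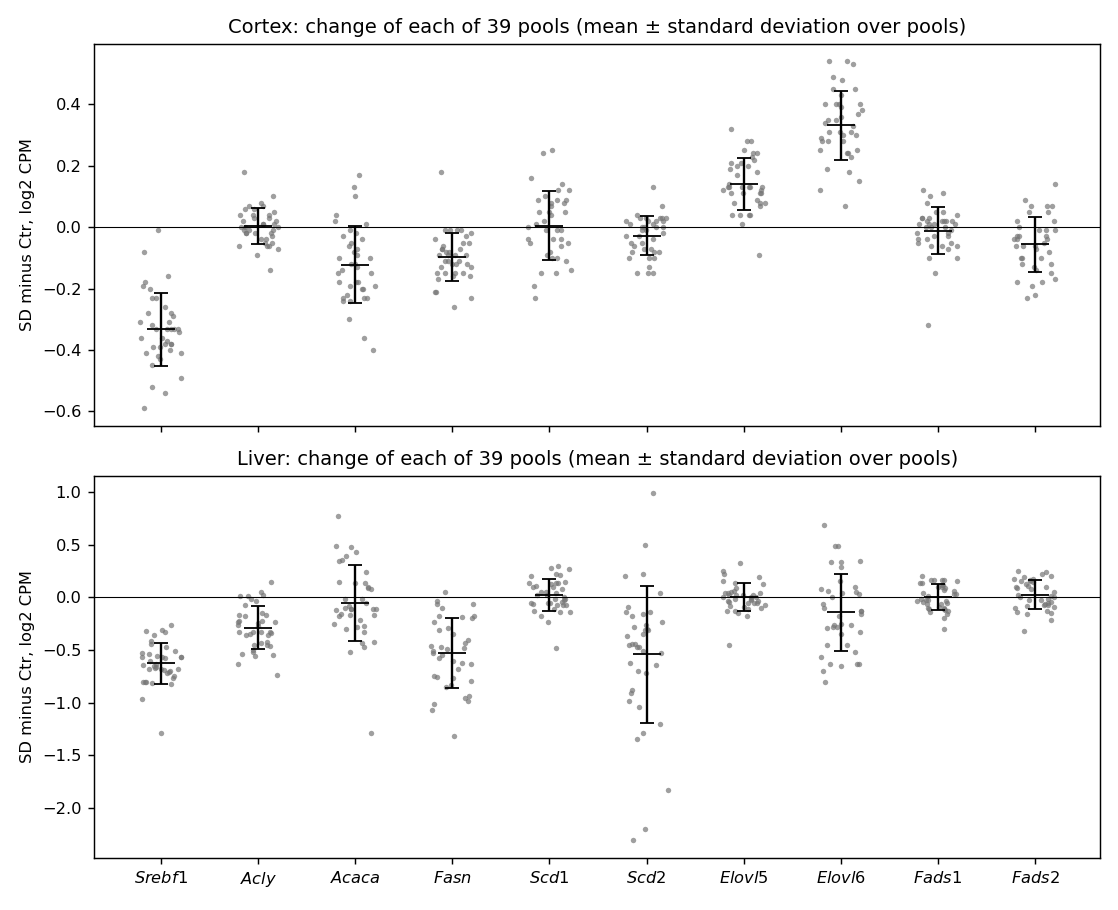
Change of each member with sleep deprivation in cortex (top) and liver (bottom), as SD minus Ctr in log2 CPM; each point is 1 of 39 pools, and bars give the mean and 1 standard deviation over pools. All cortical Srebf1 points lie below 0 and all cortical Elovl6 points above it, and in liver all Srebf1 points lie below 0 while Scd2 spreads from -2.31 to 0.99.

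In liver Srebf1 fell in 39 of 39 pools, Fasn in 38, and Acly and Scd2 in 34 each, and no member rose. With these, 4 of 10 members were called, all lower, where 44.2% of liver genes were called (22.6% lower and 21.5% higher). The median change was -0.10 for the members and -0.00 for all genes on the log2 scale. Without BXD56, BXD70, BXD90 and DB-F1 the same 4 members were called.

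Hepatic Srebf1 ran from 8.79 to 9.47 log2 CPM in Ctr (median 8.99) and from 8.04 to 9.04 after SD (median 8.37). Only the SD pool of BXD50, at 9.04, overlapped with Ctr: the other 38 SD pools were lower than every Ctr pool. Its log2 level fell by 0.63 ± 0.04 (adjusted p = 3.47e-26), and CPM fell by 35.2%, with changes from -1.29 in DB-F1 to -0.26 in BXD50. The 3 start sites of Srebf1, which give SREBP-1a and SREBP-1c, were not counted apart.

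Fasn covered 9.49 to 10.63 in Ctr liver (median 10.15) and 8.69 to 10.02 after SD (median 9.56), and 15 SD pools lay below every Ctr pool. It fell by 0.53 ± 0.06 (adjusted p = 8.78e-13), and CPM fell by 30.6%. BXD70 had the deepest change, -1.32, and BXD100 alone rose, by 0.05. Acly, which supplies the acetyl-CoA, covered 8.76 to 9.73 in Ctr (median 9.24) and 8.45 to 9.23 after SD (median 8.98), and fell by 0.29 ± 0.04 (adjusted p = 2.39e-09). Only 4 of its SD pools were below every Ctr pool.

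Scd2, the member lowest in liver, was also the most variable one in Ctr and in its change (standard deviation over pools 0.61 and 0.65). After SD its value was 0.43, against 0.46 for Acaca. Its Ctr levels ran from 4.36 to 7.20 (median 4.81), with BXD71 at 7.20, BXD96 at 6.96, BXD55 at 6.30, BXD48 at 5.79 and BXD81 at 5.43 as the highest, and its SD levels from 3.71 to 6.19 (median 4.41). Each of these 5 lines was at 5.00 or lower after SD. The log2 level fell by 0.54 ± 0.12 (adjusted p = 7.15e-05), with the deepest change, -2.31, in BXD96, whereas BXD67 rose by 0.99. BXD48 and BXD96, both among the highest in Ctr, are a line and its subline, and without the 3 sublines the call was kept (-0.52 ± 0.11, adjusted p = 1.0e-04). In the same livers all 4 B cell markers fell (median change -1.53), and their summed level went from 6.44 to 26.4 CPM in Ctr (median 12.3) to 2.30 to 12.7 CPM after SD (median 5.17). The adipocyte list had 1 of 5 genes in the liver table, Cfd, at 0.47 ± 0.45 (adjusted p = 0.424, and 0.0448 when paired by line). Markers of other cell types fell in these livers too: 1 of 2 listed neuron markers (Syt1, -0.82 ± 0.07), 1 of 4 microglia markers (Aif1, -0.44 ± 0.10), 1 of 4 cholangiocyte markers (Sox9, -0.41 ± 0.09) and 3 of 4 oligodendrocyte markers (among them Cnp, -0.30 ± 0.05). Paired by line, 3 of 5 Kupffer cell markers were called, Clec4f (0.09) and Emr1 (0.15) higher and Cd5l (-0.13) lower. So were 3 of 5 astrocyte markers, Slc1a2 (0.09) higher and Aqp4 (-0.26) and Gfap (-0.40) lower. Cx3cr1 (-0.37) joined the microglia markers called. What part any of these cells had in the fall of Scd2 was not tested.

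Elovl6 and Acaca varied widely without a call. Elovl6 ran from 7.41 to 8.59 in Ctr (median 8.11) and from 7.07 to 8.40 after SD (median 7.95), for a change of -0.14 ± 0.07 (adjusted p = 0.0925, 24 of 39 pools lower). Paired by line, it was called as well (adjusted p = 0.0256), which gave 5 members, all lower, beside 53.9% of all genes (27.9% lower and 26.0% higher). Acaca ran from 6.64 to 8.45 in Ctr (median 7.82) and from 6.69 to 8.38 after SD (median 7.78). It changed by -0.05 ± 0.10 (limma adjusted p = 0.722), with -1.29 in BXD70 and 0.77 in BXD85, a line with fewer mice, at the extremes.

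The remaining hepatic members stayed close to 0. Scd1, the main stearoyl-CoA desaturase of liver, was at 9.10 to 10.01 in Ctr (median 9.42) and 9.25 to 9.81 after SD (median 9.48), a change of 0.02 ± 0.04 (adjusted p = 0.662). The change was 0.03 ± 0.03 for Fads2, 0.01 ± 0.03 for Fads1 and 0.00 ± 0.04 for Elovl5, with 18, 20 and 21 of 39 pools lower. These are the members whose liver reads rose least with the library total, and how far that hides a change was not tested. With the log2 library total as a covariate the same 4 members were called as without it, at -0.63 for Srebf1, -0.53 for Fasn, -0.54 for Scd2 and -0.29 for Acly, and Scd1 was at 0.01 ± 0.02.

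**Figure D3:**
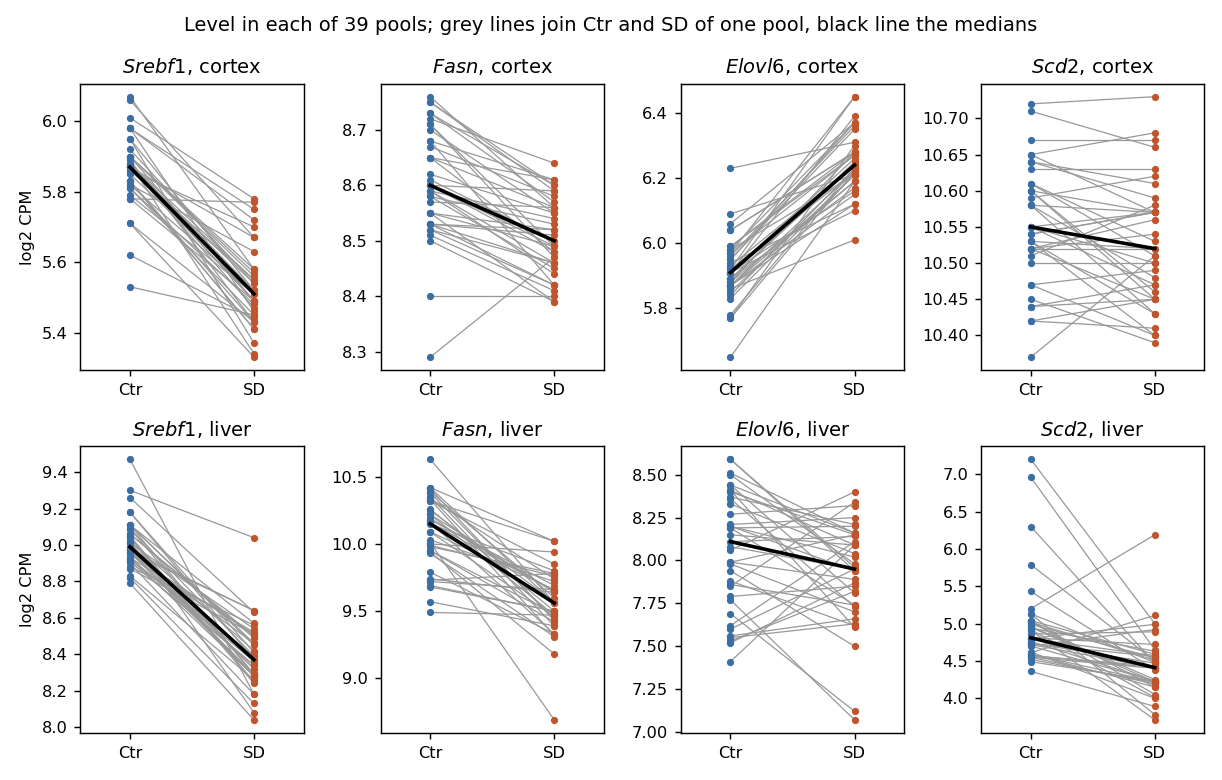
Levels (y axis, log2 CPM) of Srebf1, Fasn, Elovl6 and Scd2 in Ctr and SD, in cortex (top) and liver (bottom); a grey line joins the 2 libraries of a pool and the black line joins the medians of 39 pools. Srebf1 and Fasn medians drop in both tissues, Elovl6 rises from 5.91 to 6.24 in cortex and goes from 8.11 to 7.95 in liver, and the highest hepatic Scd2 values are in Ctr.

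Cortex and liver pools of a line share a name and a condition, so the response of liver less that of cortex was taken for each pool and tested against 0. It differed from 0 for 7 of 10 members, against 57.6% of the 12695 genes listed in both tissues. Liver lay below cortex by 0.29 ± 0.03 for Srebf1 (adjusted p = 2.98e-10, 36 of 39 pools), by 0.29 ± 0.04 for Acly (1.61e-09), by 0.43 ± 0.06 for Fasn (9.87e-09) and by 0.52 ± 0.10 for Scd2 (2.39e-05). For the elongases the tissues also parted: the difference was -0.47 ± 0.06 for Elovl6 (1.27e-08) and -0.14 ± 0.03 for Elovl5 (1.17e-05), both of which rose in cortex and were not called in liver. For Elovl5 the liver value comes from reads that rose by only 0.48 per unit of log2 library total (0.62 in cortex), and the part of this in the difference was not tested. Fads2 differed by 0.08 ± 0.03 in the other direction (0.00533), a call that was lost when the libraries were not paired (adjusted p = 0.0819). Acaca, Scd1 and Fads1 did not pass, although Acaca did without BXD56, BXD70, BXD90 and DB-F1 (0.13 ± 0.05, adjusted p = 0.0226).

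Other genes of the pathway were taken from lists of related functions, whose counts stand beside 33.0% of all genes called higher and 35.4% lower in cortex, and 21.5% and 22.6% in liver. Paired by line, 53.9% of all liver genes were called. Of 14 regulators of lipid synthesis, 2 rose and 4 fell in liver, among them Mid1ip1, an activator of Acaca (-0.36 ± 0.04), Insig1, which holds SREBPs in the endoplasmic reticulum (-0.26 ± 0.03), and Srebf2 (-0.12 ± 0.03). Paired by line, 9 of the 14 were called in liver, where 53.9% of all genes were. In cortex 6 rose and 5 fell, with Insig1 (-0.55 ± 0.03) and Mid1ip1 (-0.22 ± 0.03) again lower and Nr1h3, which encodes the oxysterol receptor LXR-alpha, higher (0.43 ± 0.06). Of 8 genes that supply acetyl-CoA or NADPH, none rose in either tissue. In cortex 7 of them fell (Aacs -0.22 ± 0.02, Idh1 -0.18 ± 0.04, Pgd -0.13 ± 0.02) and 4 in liver (Pgd -0.29 ± 0.04, Acss2 -0.23 ± 0.04, Aacs -0.19 ± 0.05). Paired by line, 7 of the 8 were called in liver too.

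Genes around malonyl-CoA and AMP-activated kinase moved both ways in cortex (4 up, 3 down of 8), with the kinase subunit Prkab1 lowest (-0.57 ± 0.04) and Acacb, the mitochondrial carboxylase, higher (0.26 ± 0.05), while 2 of 8 fell in liver (Prkab1 -0.16 ± 0.03, Prkag2 -0.13 ± 0.04). Of the other desaturases and their electron carriers, 1 of 6 rose and 3 fell in cortex, namely Scd4 (0.75 ± 0.18, from a mean Ctr level of only -0.44 log2 CPM), Fads3 (-0.25 ± 0.02), Cyb5r3 (-0.31 ± 0.04) and Fads6, and in liver Fads6 alone fell (-0.15 ± 0.04). All 9 further elongation genes were called in cortex, where 68.4% of all genes were, 6 higher, as Hsd17b12 (0.22 ± 0.01), the reductase of the elongation cycle, and 3 lower, as Elovl7 (-0.29 ± 0.06), and in liver Ptplb, a dehydratase of that cycle, fell (-0.13 ± 0.04). Pairing by line called 4 of the 9 elongation genes listed in liver (Elovl3 is listed there and Elovl4 is not, the reverse of cortex), with Elovl1 (0.06, adjusted p = 0.0262), Elovl3 (0.10, adjusted p = 0.0267) and Ptpla (0.10, adjusted p = 0.0094) higher, and it called 4 of 8 genes around malonyl-CoA and 2 of 6 desaturase genes there. In the same paired fit 53.9% of all liver genes were called.

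Downstream, 13 genes of acyl-CoA activation and glycerolipid assembly gave 4 increases and 5 decreases in liver, and all 13 were called there when paired by line, against 53.9% of all genes. Lpin1, a phosphatidate phosphatase, rose (0.85 ± 0.14), and Acsl3, an acyl-CoA synthetase (-0.73 ± 0.06), and Pnpla3, a lipid droplet enzyme that SREBP-1 drives (-1.55 ± 0.30), fell. In cortex the same list gave 5 increases and 5 decreases, with Acsl3 higher there (0.23 ± 0.02). Mitochondrial fatty acid synthesis, a separate route, had 1 gene higher and 4 lower of 5 in cortex (Cbr4 -0.35 ± 0.03) and 1 higher and 2 lower in liver. Of 11 genes that follow feeding and fasting in liver, 5 rose there, among them Igfbp1 (0.69 ± 0.15) and Irs2 (0.45 ± 0.12), and Pdk4, a fasting gene, fell (-0.95 ± 0.12), and 8 of the 11 were called when paired by line, again against 53.9%. What part food intake had in these changes was not tested.

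The lines differed in their basal levels, most of all in Acaca in cortex. Its Ctr levels fell into separate groups: 16 pools at 3.88 to 4.24 log2 CPM, which were 14 BXD lines and both D2 pools (3.89 and 4.24), and 21 pools at 5.29 to 5.63, which were 19 BXD lines and both B6 pools (5.45 and 5.46). The F1 pools lay between them, DB-F1 at 4.76 and BD-F1 at 5.05. After SD the same 16 pools were at 3.65 to 4.09, the F1 pools at 4.70 and 4.75 and the others at 5.20 to 5.42. No pool changed group, and B6 exceeded D2 by 1.39 on the log2 scale in Ctr. Acaca lies at chr11:83943174-84215153 (mm9, plus strand). Reads were aligned to mm9, which is the C57BL/6J sequence, and how much alignment of D2 alleles adds to this difference was not tested.

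In liver there was no such gap, and the largest step between neighbouring pools was 0.18 in Ctr and 0.23 after SD. The pools of the low cortical group were at 6.64 to 7.89 log2 CPM of Acaca in Ctr liver (median 7.43) and those of the high group at 7.42 to 8.45 (median 8.09), so the groups overlapped, and B6 exceeded D2 by 0.78 while the D2 pools differed from each other by 0.69. Because of the clusters, correlations of cortical Acaca are given within them only. Among the 15 low strains the Ctr and SD levels in cortex correlated at r = 0.24 (permutation p = 0.4, rho = 0.21) and among the 20 high strains at r = 0.37 (permutation p = 0.11, rho = 0.41), neither of which passed. The hepatic levels in Ctr and SD correlated at r = 0.77 within the low strains (permutation p = 8.4e-04, rho = 0.79; r = 0.79 without the 2 farthest) and at r = 0.05 within the high ones (permutation p = 0.83, rho = 0.15). From cortex to liver, the Ctr levels correlated at r = 0.47 (permutation p = 0.079, rho = 0.51) in the low and r = 0.07 (permutation p = 0.78, rho = 0.02) in the high strains.

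**Figure D4:**
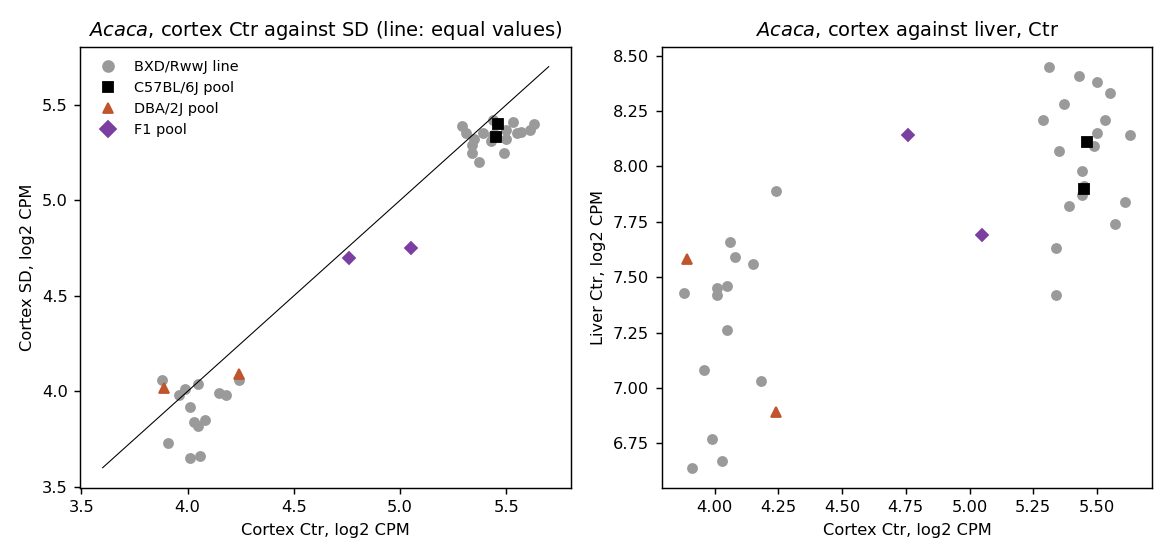
Acaca levels (log2 CPM) of 39 pools: cortex Ctr against cortex SD (left, line of equal values) and cortex Ctr against liver Ctr (right); squares are C57BL/6J pools, triangles DBA/2J pools, diamonds F1 pools and circles BXD/RwwJ lines. Cortical values form a low group up to 4.24 with the DBA/2J pools and a high group from 5.29 with the C57BL/6J pools, and the liver values of the groups overlap.

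No other member showed such a parental contrast in cortex. B6 exceeded D2 by 0.23 for Scd1 and 0.16 for Scd2 and lay 0.23 below it for Elovl5, where pools of one parent differed by up to 0.17, 0.08 and 0.03. For Elovl5, 12 of 33 lines fell between the parents, 5 below both and 16 above both. In liver the parents differed by at most 0.24 for members other than Acaca. This was for Scd2, lower in B6, where the pools of either parent differed by 0.01. For Elovl6 the D2 pools differed from each other by as much as 0.72.

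Whether a line kept its rank was asked by correlating Ctr and SD levels over 37 strains (parental pools averaged), which come from different mice. In cortex 8 of 9 members passed (permutation test adjusted over all genes, of which 43.9% passed; Acaca left out for its clusters). Elovl5 was the most stable (r = 0.86, rho = 0.83, permutation p = 1e-05 for both; r = 0.88 without the 2 farthest strains), followed by Fads1 (r = 0.80), Scd1 (0.77), Fads2 (0.75), Scd2 (0.69), Fasn (0.64), Acly (0.49) and Srebf1 (0.39, adjusted p = 0.039). Elovl6, which rose most with SD, did not pass on r (0.33, adjusted p = 0.089) but did on ranks (rho = 0.46, adjusted p = 0.013). The call of Srebf1 was lost in the BXD/RwwJ lines alone, without the 2 farthest strains, with the library total removed and without the 3 sublines (adjusted p = 0.0659, 0.0549, 0.119 and 0.0513).

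In liver 5 of 10 members passed, against 48.2% of genes: Acaca (r = 0.72, rho = 0.71), Elovl5 (0.67, rho = 0.74), Scd1 (0.58, rho = 0.64), Fads1 (0.48, rho = 0.36) and Fads2 (0.48, rho = 0.38), and Fads1 no longer did without the 2 farthest strains (r = 0.37, adjusted p = 0.0695) or on ranks (adjusted p = 0.06). Elovl6 did not pass on r (0.34, adjusted p = 0.077) but did on ranks (rho = 0.39, adjusted p = 0.039) and without the 2 farthest strains (r = 0.40, adjusted p = 0.042). The members that fell with SD did not pass, with r = 0.32 for Srebf1 and Acly, 0.27 for Scd2 and 0.20 for Fasn. For Srebf1 the value was 0.56 in the BXD/RwwJ lines alone (adjusted p = 0.00297). With libraries centred on their medians, Srebf1 (r = 0.38, adjusted p = 0.047) and Acly (r = 0.39, adjusted p = 0.04) passed as well, which made 7 members. From cortex to liver, none of 9 members passed for the Ctr level (r from -0.18 for Fasn to 0.23 for Elovl5, none with an unadjusted permutation p under 0.05), where 6.62% of genes did, and none of 10 passed for the change, where 0.0473% did. With the log2 library total as a covariate, Elovl5 passed for the Ctr level (r = 0.52, permutation test adjusted p = 0.019), where 7.07% of genes did. Fasn had the one unadjusted p under 0.05 for the change (r = -0.34, rho = -0.27, permutation p = 0.039; r = -0.27 without the 2 farthest).

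Co-variation over strains was then computed for all 45 pairs of members, in each tissue for the Ctr level and for the change. A pair was called where limma, regressing every gene of the tissue on one member, gave the other an adjusted p under 0.05. Pairs share libraries, so part of any correlation is common to all genes of a library, and the share of all genes called in such fits is given beside each count. That share is pooled over the regressors, which differed widely, so shares for single regressors are given as well.

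In Ctr liver 30 pairs were called, all positive, which is 57.8% of the fits between members against 14.5% of fits over all genes. By regressor the share over all genes was 33.7% for Fads1, 32.7% for Fads2, 30.9% for Scd1, 23.3% for Srebf1 and 19.1% for Elovl5. It was 3.46% for Acly, 0.702% for Elovl6, 0.461% for Fasn and lower for Acaca and Scd2. Without the 2 farthest strains 19 pairs were called. The closest were Fads1 and Fads2, which lie near each other on chromosome 19 (r = 0.97, rho = 0.93), Acly and Fasn (r = 0.92, rho = 0.90), Scd1 with Fads1 and with Fads2 (r = 0.92 for both, rho = 0.89 and 0.87), and Elovl6 with Fasn and with Acly (r = 0.86 for both, rho = 0.85 for both), each with a permutation p of 1e-05. Without the 2 farthest strains these values were 0.94, 0.89, 0.86, 0.86, 0.83 and 0.85. Removing the log2 library total left Acly and Fasn at 0.92, Fasn and Elovl6 at 0.87 and Acly and Elovl6 at 0.89, but lowered Scd1 with Fads1 to 0.63 and Scd1 with Fads2 to 0.62. It raised Acaca with Scd1 from 0.24 to 0.75, Scd1 with Elovl6 from 0.41 to 0.78 and Fasn with Scd1 from 0.54 to 0.81. It left 20 pairs called, 18 of them among the 30. DB-F1 had the highest Ctr liver level of Srebf1, Acly, Fasn, Scd1, Elovl5, Fads1 and Fads2, and without it 24 of the 30 pairs were called. Scd2 was in none of the 30.

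For the change in liver, 18 pairs were called, again all positive (35.6% of fits, 11.6% over all genes), and 12 of them formed 2 blocks. Except for Fads2, and for Elovl6 with Fads1, the blocks were separate only while the library total was left in, as given below. Acly, Acaca, Fasn and Elovl6 changed together: Acly with Fasn at r = 0.90 (rho = 0.88), Acaca with Fasn at 0.83 (rho = 0.82), Fasn with Elovl6 at 0.83 (rho = 0.83), Acaca with Elovl6 at 0.80 (rho = 0.81), Acly with Elovl6 at 0.77 (rho = 0.74) and Acly with Acaca at 0.75 (rho = 0.75). Elovl6 and Acaca therefore followed Fasn from line to line although their mean changes were not called without pairing by line. Paired, Elovl6 was called (limma adjusted p = 0.0256) and Acaca was not (0.418). Srebf1 was called with Acly (r = 0.62, rho = 0.62) and Fasn (r = 0.65, rho = 0.65) of this block, and with Scd1 (r = 0.46, rho = 0.21, permutation p = 0.0059) and Elovl5 (r = 0.49, rho = 0.11, permutation p = 0.0041) of the next, where r was 0.24 and 0.28 without the 2 farthest strains. The second block held Scd1, Elovl5, Fads1 and Fads2, from r = 0.78 to r = 0.90, with Fads1 and Fads2 at the top (rho = 0.87). Between the blocks Acly with Elovl5 was the 1 pair called (r = 0.41, rho = 0.24, permutation p = 0.011), a call lost without DB-F1, without BXD56 and without the 3 sublines. Both Srebf1 calls with the second block were also lost without DB-F1. The last of the 18 was Acaca with Scd2 (r = 0.37, rho = 0.42, permutation p = 0.025), lost without BXD70. All 12 within-block pairs had a permutation p of 1e-05, and the permutation p was 4e-05 for Srebf1 with Acly and 1e-05 for Srebf1 with Fasn. Without the 2 farthest strains the first block was at 0.73 to 0.89 and the second at 0.73 to 0.87.

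The change of the second block moved with the change of the library total (r = -0.88 for Scd1, -0.81 for Fads2, -0.72 for Elovl5 and -0.70 for Fads1), and for the first it did not pass, except for Acaca (r = 0.48, adjusted p = 0.011, where 35.5% of genes passed). With the total as a covariate 27 pairs were called, 15 of the 18 among them. The additions were pairs between the blocks, for example Scd1 with Fasn, and Srebf1 with Acaca and with Elovl6. Removing the total raised r between the blocks, for Acaca with Scd1 from -0.09 to 0.81 and for Fasn with Scd1 from 0.16 to 0.74. Acly with Scd1 went from 0.33 to 0.79, and the lowest pair, Acaca with Fads2, from -0.20 to 0.37. The 2 blocks were thus not separate without the total, apart from Fads2, which was called with no member of the first block, and Elovl6 with Fads1, also not called. Within the second block, removing the total lowered Scd1 with Fads2 from 0.86 to 0.53 and Elovl5 with Fads2 from 0.78 to 0.49, where the call was lost, and left Scd1 with Elovl5 at 0.79 and Fads1 with Fads2 at 0.80.

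Cortex had fewer called pairs. In Ctr 5 passed (11.1% of fits, 4.13% over all genes): Scd1 with Scd2 (r = 0.79, rho = 0.75, permutation p = 1e-05), Fads1 with Fads2 (r = 0.68, rho = 0.71, permutation p = 1e-05), Acly with Fasn (r = 0.68, rho = 0.51, permutation p = 3e-05), Fasn with Elovl6 (r = 0.63, rho = 0.59, permutation p = 6e-05) and Acly with Elovl6 (r = 0.57, rho = 0.43, permutation p = 3.3e-04). Without the 2 farthest strains r was 0.75, 0.70, 0.52, 0.45 and 0.29. By regressor the share over all genes was 19.6% for Fasn, 12.8% for Elovl6 and 8.24% for Acly, which form the last 3 pairs. It was at most 0.423% for any other member. The count of 5 was 2 on ranks, 2 without the 2 farthest strains, 1 without BXD56, BXD70, BXD90 and DB-F1, and 4 without the 3 sublines, where Fads1 with Fads2 was lost (r = 0.68, limma adjusted p = 0.0743). The 45 pairs include 9 with Acaca, none of them called, whose r is not given because of its clusters. For the change in cortex 10 pairs passed (18.9% of fits, 5.44% over all genes), led by Scd1 with Scd2 (r = 0.78, rho = 0.79), Acly with Fasn (r = 0.73, rho = 0.66) and Fads1 with Fads2 (r = 0.68, rho = 0.65). The share over all genes was 18.2% with Fasn as the regressor, 11.9% with Elovl6, 9.25% with Acly, 8.70% with Scd2 and at most 3.14% with any other member. On ranks 1 pair was called and without the 2 farthest strains 3. Without BXD90, in which Acly, Fasn, Scd1 and Scd2 all had their highest cortical change, 4 of these were called (Fads1 with Fads2, and Scd1 with Fads1, Fads2 and Scd2), and without the 4 lines BXD56, BXD70, BXD90 and DB-F1 also 4, with Scd2 and Elovl5 in place of Scd1 and Fads2. The opposite moves of Srebf1 and Elovl6 with SD had no called counterpart over strains. Their cortical changes correlated at r = -0.41 (rho = -0.19, permutation p = 0.012), or -0.33 without the 2 farthest strains. Limma gave adjusted p = 0.26 and 0.0636 for the 2 directions of regression.

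**Figure D5:**
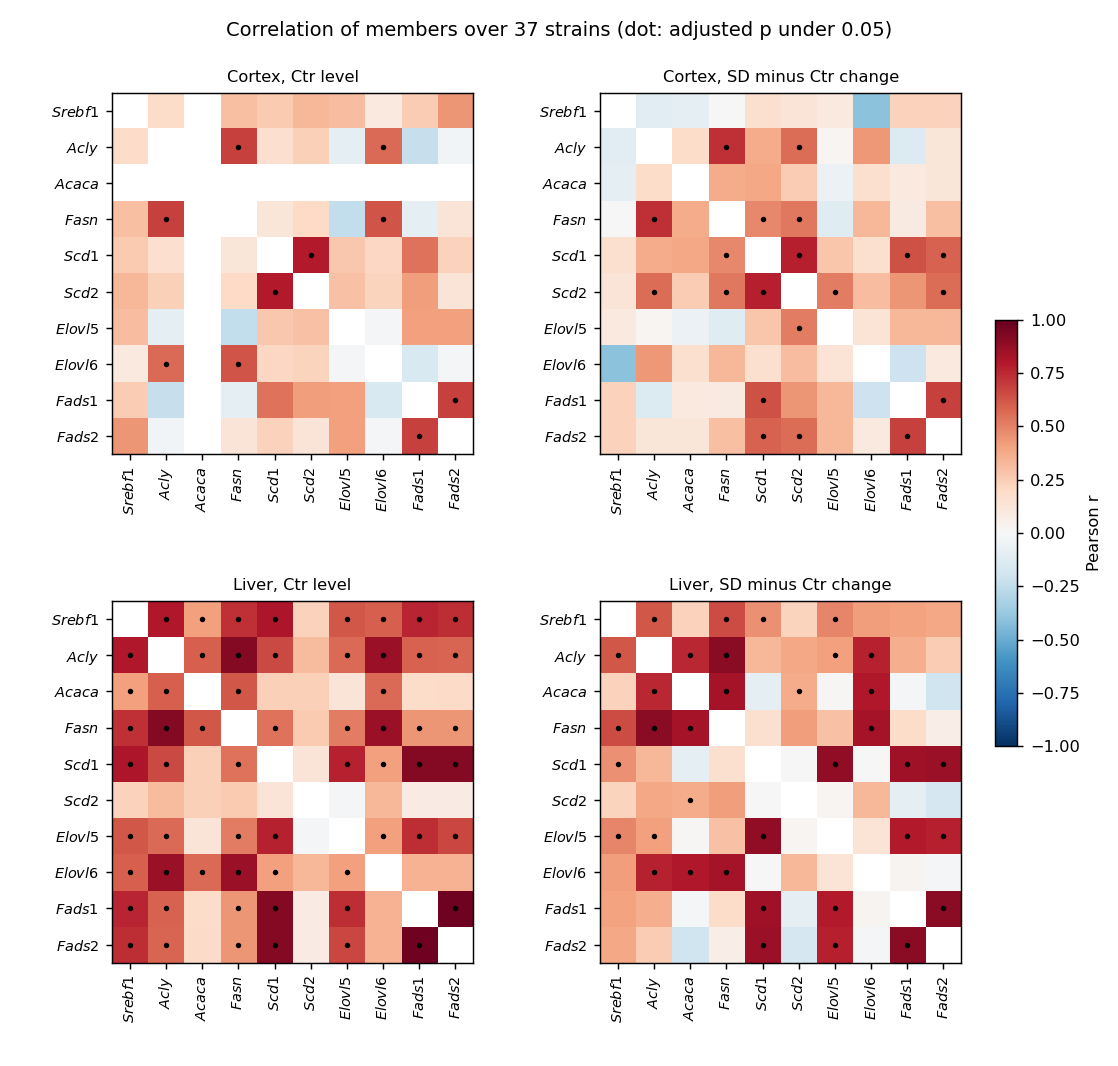
Pearson r between members over 37 strains (colour scale from -1 to 1) for the Ctr level (left) and the SD minus Ctr change (right), in cortex (top) and liver (bottom); dots mark the pairs called by limma, and Acaca is left blank in Ctr cortex because its values are clustered. Liver Ctr has 30 called pairs against 5 in cortex, and the liver change shows a block of Acly, Acaca, Fasn and Elovl6 and a block of Scd1, Elovl5, Fads1 and Fads2. These blocks were not separate once the library total was removed (Acaca with Scd1 went from r = -0.09 to 0.81). Fads2 with each of Acly, Acaca, Fasn and Elovl6, and Elovl6 with Fads1, were still not called.

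As a description over 37 strains, non-member genes among those most like the mean of the members were named for each tissue. In Ctr liver these were Gpam (r = 0.87), which begins glycerolipid synthesis, Acss2 (0.82), Pgd (0.77), Acacb (0.76) and Me1 (0.76), the last of which makes NADPH. For the change in liver they were Gpam (0.84), Acacb (0.75), Synpo (0.75) and Rdh11 (0.74). In Ctr cortex, where Acaca dominates the mean, they were Heatr6 (0.72), Bzrap1 (0.69), Gfra1 (0.62) and Cep192 (0.62), and Heatr6 (chr11:83567198-83597256) lies near Acaca in mm9. For the change in cortex they were Qk (0.73), Dennd5a (0.72), Abcc9 (0.72), Apc (0.69) and Rapgef4 (0.69).

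The mean change over the 10 members spread from -0.63 to 0.10 over strains in liver and from -0.12 to 0.10 in cortex. In liver DB-F1 was lowest (-0.63, all 10 members below 0), followed by BXD70 (-0.58, 7 below 0) and BXD55 (-0.50, all 10 below 0), and BXD100 (0.10), BXD89 (0.04) and BXD87 (0.04) were highest, around a median of -0.22. In BXD70 the fall was in Fasn (-1.32), Acaca (-1.29), Scd2 (-1.20), Acly (-0.74), Srebf1 (-0.70), Elovl6 (-0.70) and Fads1 (-0.12), while Scd1, Elovl5 and Fads2 were at 0.04 to 0.16. That SD library was also the shallowest, at 4681101 reads, and stood apart from the other livers. DB-F1 and BXD55 had the shallowest Ctr livers, at 5034166 and 5460118 reads, and the part of depth in their mean change was not tested. In cortex the mean change ran from -0.12 in BXD85, -0.10 in BD-F1 and -0.09 in BXD101 to 0.06 in BXD51, 0.07 in BXD65 and 0.10 in BXD90. BXD85 and BXD101 are lines with fewer mice.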

How the data were processed

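Stranded single-end mRNA libraries were made from pooled RNA of each line, and per the study's methods and the submitters' processing notes the authors used FastQC for read quality, STAR for alignment (mm9), HTSeq for read counts over RefSeq gene models and edgeR for normalisation (versions of STAR, HTSeq and edgeR not given in the sources used here). The deposited values are log2 CPM, scaled by the authors with TMM separately in each tissue. Whole reads were recovered from them for 100% of values (tolerance 0.02 reads). In the 39 pools, totals were 18995492 to 28998853 reads per cortex and 4681101 to 8269401 per liver library.

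SD was tested against Ctr with limma 3.58.1 (R 4.3.3; trended eBayes, Benjamini-Hochberg over all genes of a tissue, threshold 0.05) on the deposited values of 39 pools, and each pool's tissue difference with a paired limma fit. Correlations over 37 strains used 100000 permutations (Python 3.11.15, numpy 2.4.6, scipy 1.17.1, numba 0.67.0; tables with pandas 2.3.3, figures with matplotlib 3.10.9), and member pairs a limma regression. P-values rest on the spread between pools of mice. In the main SD fits, which had no line term, that spread includes the differences between lines. For cortical Acaca the standard error was 0.15 in that fit and 0.02 with line as a block. Paired fits rest on the spread over pools of each pool's own difference. Ctr and SD deviations of a line correlated at a median of 0.614 in cortex (lowest 0.299) and 0.475 in liver (lowest 0.169), against -0.0197 and -0.018 for other lines, so lines pair the libraries. Tested on simulated data, limma recovered 82.0% of genes changed by 0.3 and 100.0% of those changed by 1 on the log2 scale for cortex, 62.0% and 96.0% for liver. Members and lists were chosen with earlier results of these data known. Text names each member, up to 3 called genes of a list (largest change), the 5 genes most like the members' mean (some are not reported here), and 3 strains at each end. Alternatives covered scaling, filtering, samples, prior count, voom and the replicate block. Exon lengths and mm9 positions come from GENCODE vM1, promoters from RefSeq.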

Additional observations from a re-analysis of the deposited data

Results flagged for a closer look

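The response to SD differed between the tissues, by a paired limma test of liver less cortex, for Srebf1 (-0.29), Acly (-0.29), Fasn (-0.43), Scd2 (-0.52), Elovl5 (-0.14), Elovl6 (-0.47) and Fads2 (0.08, all on the log2 scale).

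Within the 4 BXD/TyJ lines, single values lay far from the other 3 by Dixon's test. Of 60 groups tested 3 gave such a value, and chance gives one in about 1 in 20 groups. In Ctr cortex Acaca was at 3.44 log2 CPM in BXD05 and at 4.11 to 4.18 in the others, all of them at or below the low group of the main lines. The hepatic change of Elovl5 was 0.01 in BXD29 and -0.09 to -0.08 in the others. Hepatic Fads1 after SD was at 8.43 in BXD29t and at 8.75 to 8.78 in the others.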

How the results depend on the processing

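Counts of called members were recomputed under 15 alternatives per tissue. With line as a replicate block, 7 members were called in cortex, and also 7 with voom and the block (Acaca, Fads2 and Scd2 added); in liver both gave 5 (Elovl6 added), and the block changed no other call. Elsewhere counts were 4 to 6 in cortex and 4 to 5 in liver. Without BXD79, BXD85 and BXD101, the lines with fewer mice, the count was 4 in each tissue. Leaving out 1 pool at a time gave 4 to 5 members in cortex (Fads2 gained without BXD51, BXD56, BXD64, BXD70 or B6-1), 4 to 5 in liver (Elovl6 gained without BXD85) and 7 to 7 for the tissue difference. Small values changed sign: cortical Acly was -0.00037 with centred libraries, -0.04 with quantile normalization (adjusted p = 0.00156, limma) and -0.0022 without BXD56, BXD70, BXD90 and DB-F1, and -0.00082 to 0.01 over pools left out; cortical Scd1 was -0.04, -0.01, -0.0021 and -0.0017 to 0.01 with quantile normalization, without those 4, without the sublines BXD96, BXD97 and BXD103 and over pools left out; hepatic Elovl5 was -0.01 with quantile normalization, -0.0045 with 43 pools, -0.00079 with parental pools averaged, -0.01 with the library total as a covariate, -0.00065 without the sublines and -0.01 to 0.01 over pools left out; hepatic Fads1 was -0.02 with quantile normalization and -0.0042 with the covariate. Called pairs in Ctr cortex fell from 5 to 2 on ranks, 2 without the 2 farthest strains and 1 without the 4 lines, and in Ctr liver from 30 to 19 without the 2 farthest. For the cortical change they fell from 10 to 1, 3 and 4 in the same order, and to 4 without BXD90. Over BXD56, BXD70, BXD90 or DB-F1 left out, pairs numbered 4 to 5 and 24 to 32 in Ctr cortex and liver, and 4 to 13 and 15 to 20 for the change. Between tissues, Elovl5 was the 1 member called for Ctr level with the covariate (r = 0.52); r turned to -0.0047 for Fads2 in the BXD/RwwJ lines and -0.0031 without the sublines, -0.14 for Scd1 and -0.07 for Scd2 without the 2 farthest strains, and with the covariate to 0.0045 for Acly, -0.15 for Scd1, -0.01 for Elovl6 and -0.06 for Fads1. The cause was not tested. The covariate and the removal of the 4 lines or of the sublines were chosen after seeing the data. Liver libraries are shallower. Their reads on Scd1, Fads1, Fads2, Elovl5 and Srebf1 rose less than in proportion to the total, but those on Acly (slope 0.94 ± 0.12) and Fasn (1.20 ± 0.19) did not.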

Other observations

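The 4 BXD/TyJ lines, which entered the comparisons of the report only as an alternative with all 43 pools, moved in the same direction as the other pools for the members that changed most. Hepatic Srebf1 changed by -0.63, -0.76, -0.68 and -0.77 on the log2 scale in BXD05, BXD29, BXD29t and BXD32, and cortical Srebf1 by -0.21, -0.50, -0.39 and -0.40. Fasn, the synthase, changed by -0.43, -0.97, -0.78 and -0.79 in liver. Acly changed there by -0.35, -0.52, -0.36 and -0.22, and Scd2 by -0.90, -1.21, -1.01 and -0.22. Elovl6, the elongase of palmitate, changed by 0.48, 0.30, 0.22 and 0.26 in cortex but by -0.38, -0.62, -0.43 and -0.39 in liver, which matches in sign the difference between tissues found in the 39 pools.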
